A study of Mus musculus with 17 samples.

Results

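The genes described here encode the mitochondrial respiratory chain and ATP synthase. Members were chosen by gene name alone: Nduf genes of the a, b, c, s and v series, Sdha to Sdhd, Uqcr genes, Cox4 to Cox8 genes, Atp5 genes and the protein-coding genes of the mitochondrial genome. Names containing -ps or -rs, which mark pseudogenes and related sequences, were left out and accounted for 6 genes. The rule found 105 of the 48440 genes in the table. Of these, 92 were nuclear-encoded and 13 were encoded by mitochondrial DNA. The nuclear members comprised 36 subunit genes of complex I, 7 Ndufaf genes for complex I assembly factors, 4 genes of complex II, 8 of complex III, 20 of complex IV (Ndufa4 and Ndufa4l2 included), 15 of ATP synthase (complex V) and the related genes Atp5s and Atp5sl. The mitochondrial members comprised 7 subunit genes of complex I, 1 of complex III, 3 of complex IV and 2 of complex V.

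Expression was measured by RNA-seq of poly(A) RNA from mouse liver in 17 libraries. The wild type was strain B6, sampled at 2 months (young, 6 libraries) and at 2 years (old, 5 libraries). The third group was miR-29 transgenic at 2 months (6 libraries). The labels state neither the promoter of the transgene nor the miR-29 family member it carries, and they give a strain for the wild type only. Libraries came from 2 batches that differed in kit and sequencing site. Batch A (10 libraries, TruSeq polyA, North Carolina) held 4 young, 3 old and 3 transgenic libraries of both sexes, 1 of the transgenic ones being female. Batch B (7 libraries, NEBNext Ultra II Directional, Cornell) held 2 young, 2 old and 3 transgenic libraries, all male. In all, 12 libraries came from males and 5 from females. The labels do not say that each library came from a separate animal, so p-values measure the spread between these libraries.

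Complex I (NADH dehydrogenase), complex II (succinate dehydrogenase), complex III (cytochrome bc1) and complex IV (cytochrome c oxidase) pass electrons from nutrients to oxygen. Complexes I, III and IV pump protons, and ATP synthase uses the resulting gradient to make ATP. Mitochondrial DNA encodes a core of complexes I, III, IV and V, whereas complex II is wholly nuclear-encoded, so the assembly of the other complexes draws on both genomes. Hepatocytes are rich in mitochondria and use this chain for gluconeogenesis, urea synthesis and fat oxidation.

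Sequences are shown where a result turns on them. The transgene is named for miR-29, a microRNA family whose mature members share a seed, the bases that pair with target messages. In the mature sequences from RefSeq the seed, bases 2 to 8, is in capitals.
mmu-miR-29a-3p: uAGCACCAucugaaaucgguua
mmu-miR-29b-3p: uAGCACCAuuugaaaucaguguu
mmu-miR-29c-3p: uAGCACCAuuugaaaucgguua
The seed AGCACCA is the same in all 3, which differ from each other only after it.

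Several mitochondrial genes overlap one another or have near-identical copies in nuclear chromosomes, and reads from such stretches cannot be assigned to a gene by sequence. mt-Atp8 and mt-Atp6, which encode subunits 8 and a of ATP synthase, overlap by 43 bases on the same strand at chrM:7927-7969 (GRCm38), shown here because every read within it fits both genes.
mt-Atp8 and mt-Atp6 overlap: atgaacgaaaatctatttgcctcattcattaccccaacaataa
mt-Nd3, a core subunit of complex I, has an annotated copy, Gm28438, at chr1:24612775-24613119 that differs by the substitution T3C, with positions counted from 1 at the 5′ end of the coding sequence. The first bases of both are shown with the differing base in capitals.
mt-Nd3: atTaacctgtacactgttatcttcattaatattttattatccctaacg
Gm28438: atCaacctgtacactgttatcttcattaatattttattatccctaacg
Over 345 aligned bases this was the only difference, a sequence identity of 99.7%.

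The tissue label was checked first. The 7 hepatocyte markers (Alb, Apoa1, Ttr, Apob, Serpina1c, Fgb and Tat) together took 6.42% to 16.2% of a library's total, so liver messages were abundant in every library. A library's normalized values added up to between 28077001 and 38594453 for batch A and between 29552390 and 44543936 for batch B. Since values were already scaled by the authors, such sums do not give the sequencing depth, which is unknown. Markers of other tissues were scarce in most libraries, but old library 4 had a summed value of 214 for muscle and 99.4 for white fat markers. In old library 5 the sum of the brown fat markers was 280, all of it from Cidea, with Ucp1 at 0. The summed neutrophil markers ranged from 421 to 7321 in the transgenic libraries of batch A and from 6601 to 44106 in those of batch B, against 28.1 to 88.9 in the young wild type of batch A and 311 to 476 in that of batch B.

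The summed nuclear-encoded members took 0.775% to 1.57% of a library in batch A and 1.23% to 2.61% in batch B. Both young wild-type libraries of batch B stood above all others, at 2.61% and 2.54%. The old libraries of batch B were at 1.23% and 1.77% and the transgenic ones at 1.71%, 1.85% and 2.46%. In batch A the groups overlapped, with means of 1.10% ± 0.12 (SD, n = 4) in the young, 1.19% ± 0.40 (SD, n = 3) in the old and 1.13% ± 0.16 (SD, n = 3) in the transgenic libraries. Cytosolic ribosomal protein genes, which share no function with the chain, were also high in the young libraries of batch B, at 4.55% and 4.35% of the total, against 1.14% to 2.5% in batch A. The highest ribosomal share, 5.97%, was in transgenic library 6 of batch B. Because the young libraries of batch B stood apart, comparisons with the young group are given below with and without them. These libraries were singled out by the members' own high values. A higher nuclear age or transgene median without them follows from that choice and is no independent check. Fits without them kept the old and transgenic libraries of batch B. Their batch term then rested on these groups, and only batch A compared any group with the young directly.

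The mitochondrially encoded members ran the other way between batches. Their summed share was 5.02% to 8.48% in batch A and 2.49% to 3.62% in batch B, without overlap. With the annotated nuclear copies added, the shares were 7.21% to 13.4% and 3.16% to 5.20%. Mitochondrial rRNA, which poly(A) selection captures only in part, took 0.0703% to 0.159% in batch A and 0.224% to 0.812% in batch B.

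**Figure D1:**
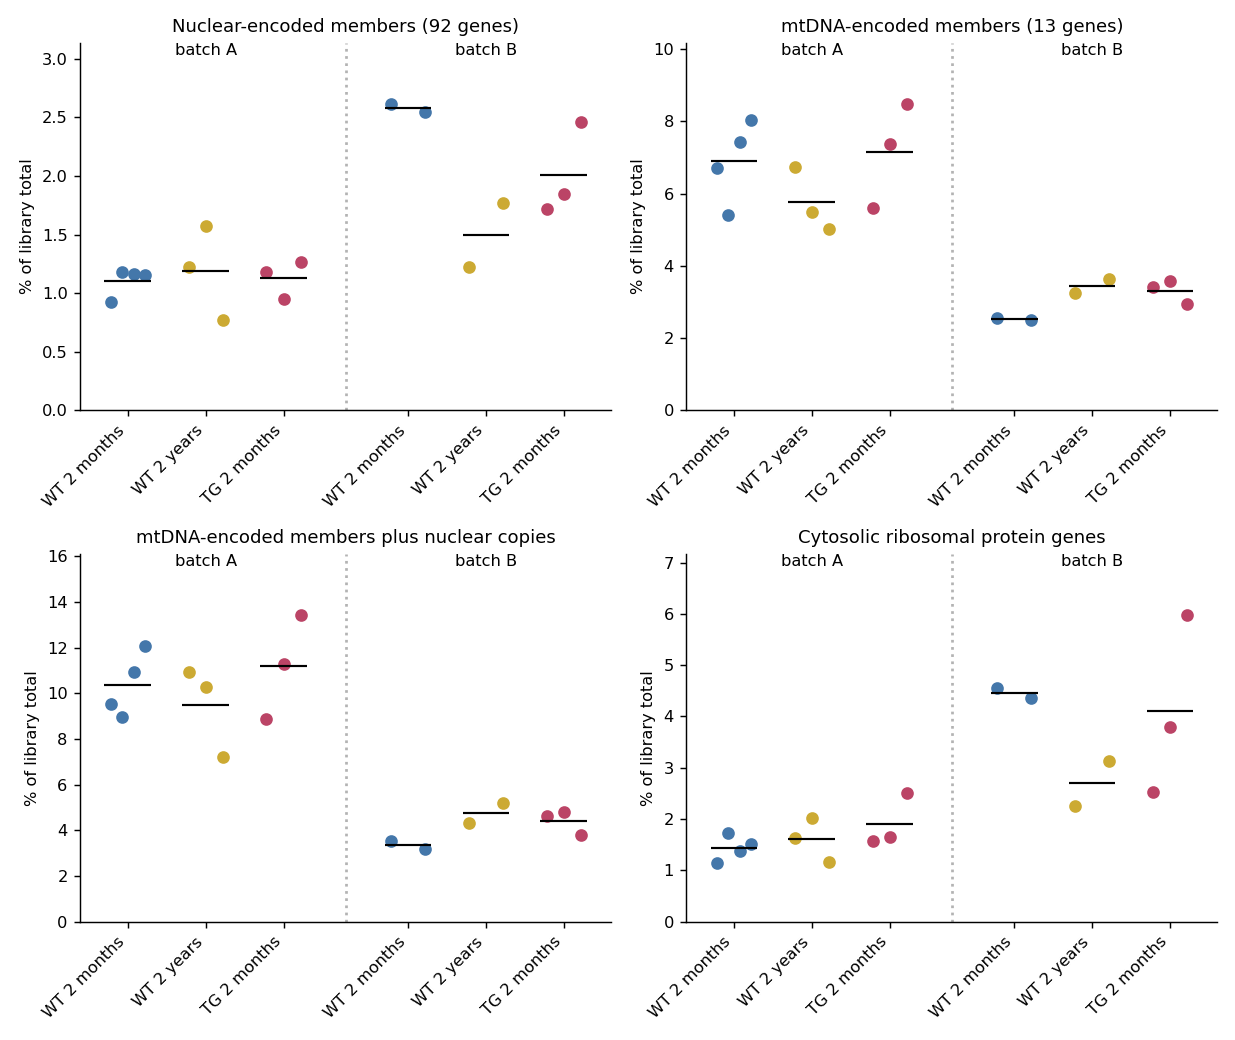
Summed levels per library, as percent of the library's total normalized value (y axes start at 0), for the nuclear-encoded members, the mitochondrially encoded members without and with their nuclear copies, and cytosolic ribosomal protein genes. Each point is a library, horizontal bars are means, and the dotted line separates the batches; both young wild-type libraries of batch B exceed 2.5% for the nuclear-encoded members, and no batch B library reaches the lowest batch A share of the mitochondrially encoded members.

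Levels between genes were compared per kilobase of annotated exon, as the mean normalized count over 17 libraries. By its own counts, mt-Co1, the catalytic subunit of complex IV, had the highest level at 397301 per kilobase, and 12 of 13 mitochondrial messages lay above every nuclear member. The exception was mt-Nd4l, a complex I subunit, at 7877. With the counts of near-identical nuclear copies added, this order turned: mt-Co2 stood at 512532, above mt-Co1 at 476240 and mt-Co3 at 446674, and mt-Nd4l at 39633. mt-Cytb, the cytochrome b of complex III and without a listed copy, was at 213483, and mt-Nd1, the highest complex I message, at 172056. Among nuclear members the highest per kilobase was Cox4i1 of complex IV, at 17714, followed by Cox6a1 at 12574 and Cox6b1 at 12382, both small complex IV subunits. These levels use all annotated exons, so a gene with long annotated introns retained in a transcript appears lower. In complex III the highest were Uqcr11 at 12357, Uqcrq at 11480 and Uqcr10 at 8502. In complex V, Atp5b, the catalytic beta subunit, led at 9434, above Atp5a1 (alpha) at 8219 and Atp5h (subunit d) at 6898. Ndufa2 led complex I at 8629, and Sdhd, a membrane anchor, led complex II at 5753. The assembly factors were an order lower, with Ndufaf1 the highest at 531 per kilobase.

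Where a complex IV subunit has tissue isoforms, the liver libraries held almost only the widely expressed one. Cox4i2, known from lung, made up at most 0.254% of Cox4i1 and Cox4i2 together and was at 0 in 2 libraries. Cox6a2, the heart and muscle form, reached at most 0.0649% of its pair and was at 0 in 9 libraries. Cox7a1, also a heart and muscle form, had a median share of 1.25% of Cox7a1 and Cox7a2, with a highest share of 3.1%. Ndufa4l2, a hypoxia-induced relative of Ndufa4, ranged from 0.251% to 4.57% of its pair. Cox6b2, the testis form, ranged from 0.0531% to 2.04% of Cox6b1 and Cox6b2 together. Cox7b2 and Cox8c were listed at 0 in every library, and Cox8b and Cox6a2 had means of 1.10 and 1.47, so these 4 members fell under the filter (a mean of at least 10) and were not tested. The 3 genes of the ATP synthase c subunit encode the same mature protein. Atp5g3 supplied a median of 59.1% of their summed counts, Atp5g1 30.3% and Atp5g2 7.6%. These shares are uncertain, because the coding sequence of Atp5g2 has an identical pseudogene copy, Gm10175, with a mean of 1680. That of Atp5g1 has a copy of 99.8% identity, Gm10039, with a mean of 173.

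The remaining 101 members, 88 nuclear and all 13 mitochondrial, entered the tests, which were fitted with limma over 14588 genes with group, batch and sex as terms. Fold changes are on the log2(normalized count + 1) scale, which understates changes of low genes. A gene was called at a Benjamini-Hochberg adjusted p under 0.05, and "rose" and "fell" are used of called genes only. In bulk tissue, fewer cells of a type and less RNA per cell cannot be told apart.

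The first comparison, old against young wild type, asks how the liver's messages differ with age. No member was called by limma, against 0.144% of all genes tested, and none passed in the authors' deposited table, where 1.77% of all genes did. The fold changes of the nuclear members nevertheless lay mostly below 0, in 83 of 88, with a median of -0.45 against 0.00 over all genes. The median was -0.52 for complex I subunits (36 of 36 below 0), -0.40 for the complex I assembly factors (7 of 7), -0.40 for complex III (8 of 8), -0.56 for complex IV (15 of 16) and -0.43 for complex V (13 of 15). Complex II differed from these by its values, with a median of -0.02 and 2 of 4 below 0. At an unadjusted p under 0.05, 8 members were lower in the old group, against 4.17% of all genes: 5 subunits of complex I, 2 of complex IV and mt-Atp8. The cytosolic ribosomal protein genes had a median of -0.34, with 80 of 80 below 0, none called.

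These medians differed between batches. In batch A fitted alone, the age median of the nuclear members was 0.0565 (33 of 88 below 0), and in batch B alone it was -1.30 (82 of 88 below 0). Complex I had medians of 0.09 (A) and -1.44 (B), complex III at 0.03 and -1.14, complex IV at -0.00 and -1.47, and complex V at 0.06 and -1.29. The cytosolic ribosome moved in the same way, from 0.11 to -1.14, while the citrate cycle enzymes stayed near 0, at 0.06 and 0.02. Cell markers moved as well. The 7 red cell markers had an age median of 1.35 (A) and -2.65 (B), none called, and their summed level was 175499 to 201757 in the young and 14046 to 65912 in the old libraries of batch B, against 16410 to 27292 and 30526 to 96450 in batch A. The 7 neutrophil markers fitted were all above 0 for age over both batches, with a median of 2.01 and none called. Within batches their medians were 2.81 (A) and 0.52 (B), with 2 of 7 below 0 in batch B. The part of these cells in the members' values was not tested. Without the young libraries of batch B, the nuclear median over all remaining libraries was -0.15. In batch B every old library lay below every young library for 80 of the 88 nuclear members, against 32.8% of all genes, and in batch A for 0 of 88, against 2.81% of all genes.

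**Figure D2:**
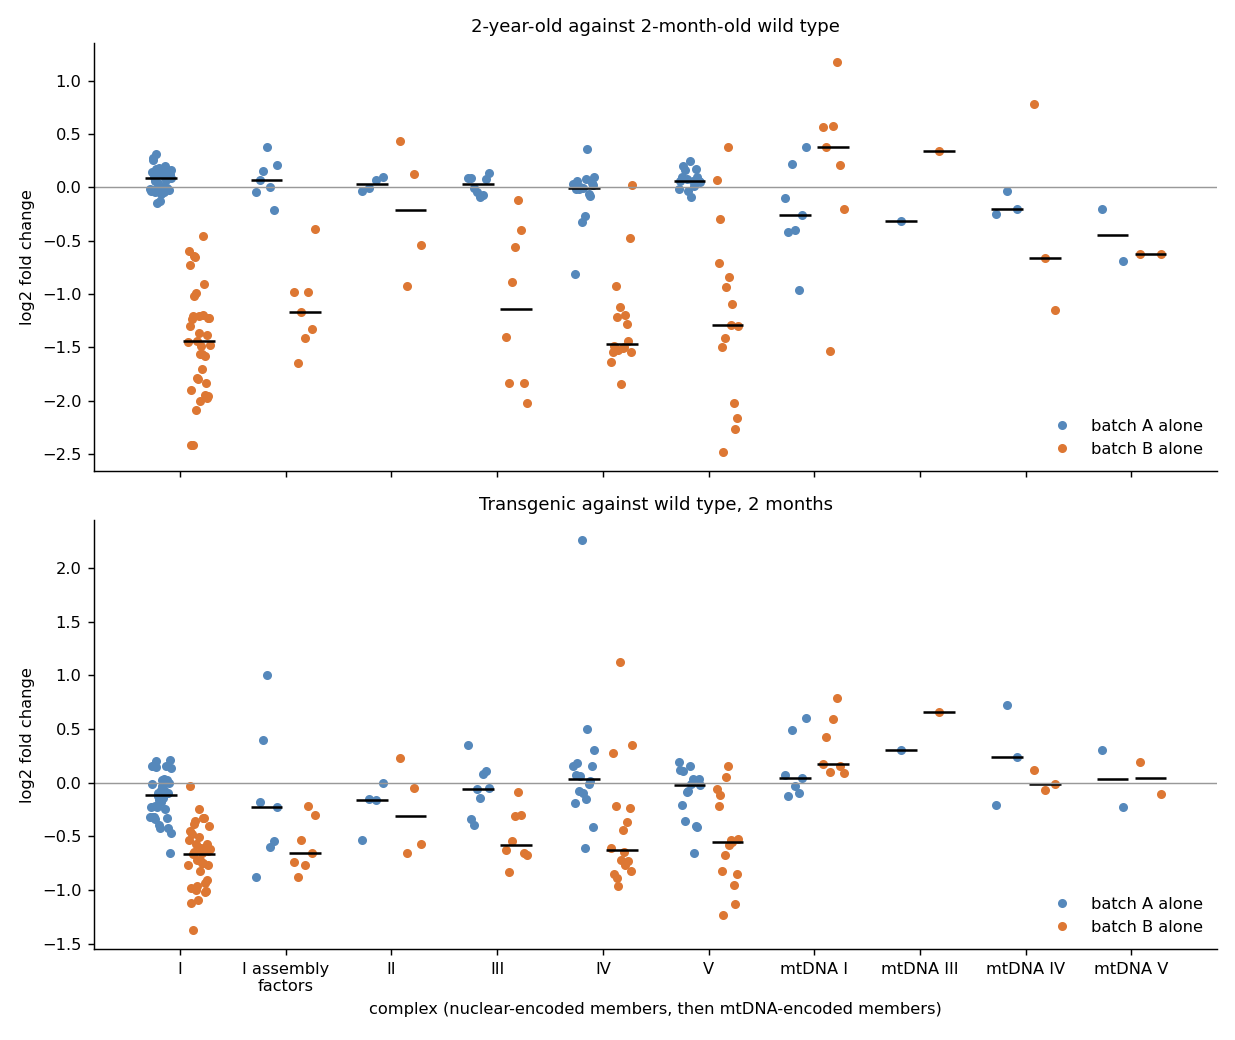
Log2 fold changes of the fitted members except Atp5s and Atp5sl (points) within batch A (blue) and batch B (orange), by complex. Nuclear-encoded members are to the left and mitochondrially encoded members to the right, and horizontal bars are medians. Upper panel, old against young wild type, where nuclear complex I has medians of 0.09 (A) and -1.44 (B); lower panel, transgenic against wild type at 2 months.

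In complex I, the smallest p for age belonged to Ndufb3, an accessory subunit of the membrane arm. In batch A, Ndufb3 had normalized counts of 1605, 2103, 1792 and 1900 in the young libraries and 2146, 2303 and 1089 in the old. In batch B it had 6372 and 4993 in the young and 1172 and 2257 in the old. The groups thus overlapped in batch A and were separate in batch B, where the young values were the highest of all 17 libraries. The fitted age difference was -0.75 ± 0.29 (SE; limma adjusted p = 0.503), and without the young libraries of batch B it was -0.36.

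Among the assembly factors, Ndufaf6 had the smallest p, with -0.65 ± 0.34 (SE; limma adjusted p = 0.597). Its counts in batch A were 432, 401, 343 and 400 in the young and 392, 472 and 201 in the old, and in batch B 1121 and 1252 in the young and 328 and 675 in the old. As for Ndufb3, the separation was in batch B alone.

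Complex II was represented by Sdhb, its iron-sulfur subunit, at -0.35 ± 0.20 (SE; limma adjusted p = 0.618). Its counts in the young libraries were 4413, 6964, 6561 and 6627 in batch A and 13413 and 13223 in batch B, and in the old 6705, 8903 and 4240 in batch A and 5989 and 8179 in batch B. Sdha, the catalytic flavoprotein, had the opposite order in batch B, with 18342 and 16524 in the old libraries above 12549 and 13304 in the young.

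In complex III the smallest p was that of Uqcrh, the hinge subunit, at -0.64 ± 0.33 (SE; limma adjusted p = 0.591). Uqcrh counts in batch B were 20447 and 20037 in the young and 4612 and 7017 in the old libraries, whereas those of batch A ran from 4860 to 7250 in the young and from 3942 to 8965 in the old. In complex IV it was Cox7c, at -0.58 ± 0.27 (SE; limma adjusted p = 0.557), with 12546 and 10406 in the young against 3213 and 5505 in the old libraries of batch B. In batch A the Cox7c counts overlapped, at 7134, 9271, 9390 and 10331 in the young and 10001, 12367 and 5619 in the old.

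In complex V it was Atp5l, subunit g of ATP synthase, at -0.77 ± 0.38 (SE; limma adjusted p = 0.580). Atp5l had 12971 and 11351 in the young and 1860 and 3932 in the old libraries of batch B, and 5063 to 7673 against 4677 to 8880 in batch A. Its coding sequence has an identical pseudogene copy, Gm10221, with a mean of 2835, so its counts are uncertain. Without the young libraries of batch B the difference was -0.25.

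The mitochondrially encoded members showed a smaller shift with age, a median of -0.13 with 10 of 13 below 0. After rescaling the libraries to equal totals their median was 0.01, but the median of all genes then stood at 0.13. Split by batch, 11 of 13 were below 0 in A (median -0.25) and 6 of 13 in B (median 0.21). The smallest p was that of mt-Atp8, at -0.67 ± 0.24 (SE; limma adjusted p = 0.473). mt-Atp8 had 15934, 11435, 17894 and 20758 in the young and 13154, 6931 and 11751 in the old libraries of batch A, and 16095 and 15711 against 8765 and 12184 in batch B. Its difference was nearly the same in both batches, -0.69 ± 0.31 (SE) in A and -0.62 ± 0.38 (SE) in B. It had no listed nuclear copy, but only annotated genes were searched. The bases between the chromosome 1 copies of its neighbours mt-Co2 and mt-Atp6 are outside these, so whether mt-Atp8 has a copy there was not tested. The groups did not overlap in batch B, and in batch A 2 of the 3 old values lay above the lowest young value. The other mitochondrial members ranged from -0.56 ± 0.38 (SE) for mt-Co3 to 0.17 ± 0.27 (SE) for mt-Nd6, the only message of the opposite strand, with limma adjusted p values of 0.650 and 0.846. With nuclear copies summed, mt-Co3 was at -0.22, mt-Atp6 turned from -0.36 to 0.09 and mt-Nd4l went from -0.16 to -0.55, none of them called.

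Whether the age difference itself differed between batches was tested with an interaction term. No member was called, and only 0.0206% of all genes were. Among nuclear members the interaction median was -1.36, with 83 of 88 below 0, against 0.03 over all genes. At an unadjusted p under 0.05, 61 members had a lower age effect in batch B, against 13% of all genes. These comprised 31 of 36 complex I subunits, 3 of 7 assembly factors, 1 of 4 complex II genes, 5 of 8 complex III genes, 10 of 16 complex IV genes, 10 of 15 complex V genes and mt-Nd3. Without old library 5, limma called 4 members (Ndufs3, Ndufa5, Ndufb3 and Atp5l), and without transgenic library 4 it called 3 (Ndufs3, Ndufa2 and Atp5l), against 1.62% and 1.15% of all genes in those fits. With libraries weighted by their spread (array weights), it called 61, against 18.4% of all genes, in a fit whose weights did not converge. The smallest limma adjusted p, 0.106, was shared by several members, among them Ndufb10 (-2.13 ± 0.55 SE), Uqcrh (-1.90 ± 0.53), Cox5a (-1.48 ± 0.40) and Atp5l (-2.23 ± 0.60).

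Ndufb10, a complex I membrane-arm subunit, illustrates the pattern. Its counts in batch A were 2442, 4122, 3566 and 3653 in the young and 3857, 5723 and 2231 in the old. In batch B they were 20247 and 21178 in the young and 3901 and 6097 in the old. The young libraries of batch B were thus the highest of all, while the old libraries of batch B lay close to those of batch A. Transgenic library 6 of batch B, at 16263, came next, above transgenic libraries 4 and 5 at 6412 and 10635.

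The second comparison, transgenic against wild type at 2 months, asks what the miR-29 transgene does to the liver's messages. No member was called, while 6.71% of all genes were. The nuclear members had a median of -0.24, with 74 of 88 below 0, and the mitochondrial members a median of 0.18, with 11 of 13 above 0, against 0.01 over all genes. Without the young libraries of batch B these medians were 0.11 and -0.04. By complex the nuclear medians were -0.27 for complex I (35 of 36 below 0), -0.37 for its assembly factors, -0.22 for complex II, -0.13 for complex III, -0.17 for complex IV and -0.21 for complex V. With 1 library left out, the nuclear median ran from -0.35 (without young library 1) to -0.11 (without young library 5) and the mitochondrial one from 0.09 (without young library 6) to 0.27 (without transgenic library 3). Without old library 4, Ndufaf1 was called, against 8.99% of all genes, and without transgenic library 3 or 4, Cox6b2, against 5.06% and 6.49%. At an unadjusted p under 0.05, 1 member was higher and 2 were lower, against 21.2% of all genes in either direction. All 7 neutrophil markers fitted rose, with a median of 5.23, and 4 of 7 red cell markers rose. The other 3 red cell markers were below 0 without a call, Hba-a1 at -2.09, Hba-a2 at -2.08 and Alas2 at -1.09. The part of these cells in the members' values was not tested.

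The transgene medians were again farther from 0 in batch B. For the nuclear members, batch A gave -0.08 (56 of 88 below 0) and batch B gave -0.62 (82 of 88 below 0). Without the young libraries of batch B the median was 0.11, above 0. In that fit only batch A, whose own median was -0.08, held both groups. Every transgenic library lay below every young wild-type library for 52 of 88 nuclear members in batch B, against 22.4% of all genes, and for 5 of 88 in batch A, against 9.01%. For the mitochondrial members the medians were 0.08 and 0.16 in the 2 batches, and 0 of 13 had all transgenic libraries below the young in either.

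Ndufaf1, an assembly factor of the complex I membrane arm, had the smallest limma adjusted p of the lower members, 0.0972, at -0.76 ± 0.26 (SE). Its counts were 957, 1119, 829 and 836 in the young and 822, 399 and 391 in the transgenic libraries of batch A, and 1120 and 1092 against 688, 682 and 615 in batch B. All transgenic values lay below all young values in both batches. The within-batch differences were -0.88 ± 0.36 (SE) and -0.74 ± 0.26 (SE).

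Ndufb3 was at -0.62 ± 0.28 (SE; limma adjusted p = 0.202), with 1475, 1132 and 1392 in the transgenic libraries of batch A and 2136, 2877 and 3034 in those of batch B. These values were below all young values of the same batch. Sdhb of complex II was at -0.33 ± 0.19 (SE; limma adjusted p = 0.370) and Uqcrb, a complex III subunit, at -0.41 ± 0.21 (SE; limma adjusted p = 0.282). Atp5j, coupling factor 6 of ATP synthase, was at -0.54 ± 0.27 (SE; limma adjusted p = 0.264). Atp5j overlaps Gabpa on the opposite strand by 701 bases, and since the strand setting of the counting was not given in the sources used here, their reads may not be separated. In the authors' deposited table of this comparison, Uqcrb, Ndufs4, Atp5j, Ndufb3, Ndufaf1 and Ndufs5 were lower and Cox6b2 higher at the adjusted threshold, 7 of 101 members, where 14.1% of all genes in the authors' deposited table passed.

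The mitochondrial members ranged from -0.18 ± 0.23 (SE; limma adjusted p = 0.723) for mt-Atp8 to 0.42 ± 0.25 (SE; limma adjusted p = 0.371) for mt-Cytb. mt-Cytb had 260841, 326518, 335946 and 369198 in the young and 345906, 368656 and 423590 in the transgenic libraries of batch A, and 108896 and 82247 against 161529, 201326 and 102166 in batch B. The groups overlapped in both batches. The 7 mitochondrial complex I messages were all above 0, between 0.07 and 0.41 by their own counts, with no call. With copies summed, mt-Nd4l was at -0.06 and the other 6 stayed above 0, while mt-Co2 of complex IV went from 0.41 to 0.11.

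No member was called for a transgene effect that differed between batches, against 0.5% of all genes. With array weights, which again did not converge, limma called 3 (Cox7a2l, Ndufaf4 and Atp5s), against 7.66%. At an unadjusted p under 0.05, 4 members had a lower transgene effect in batch B, against 7.2% of all genes. Ndufaf4, a complex I assembly factor, had the smallest limma adjusted p, 0.0955, at -1.77 ± 0.47 (SE). Ndufaf4 counts in batch A were 618, 914, 509 and 592 in the young and 1123, 1105 and 1726 in the transgenic libraries, and in batch B 2830 and 2205 in the young and 990, 1491 and 2139 in the transgenic. The transgenic libraries were thus above all young ones in batch A and below them in batch B. Sdha of complex II had an interaction of 0.76 ± 0.41 (SE; limma adjusted p = 0.383), with transgenic library 4 of batch B at 24444 and the other transgenic libraries of that batch at 12386 and 11467.

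The third comparison set the transgenic against the old wild type, groups that differ in both age and genotype. Young libraries took part in its fit through the batch, sex and spread estimates. A single member, Cox6b2, was called, which is 1 of 101 against 2.55% of all genes. The nuclear median was 0.22 (73 of 88 above 0) and the mitochondrial median 0.34 (11 of 13 above 0), against 0.02 over all genes. With 1 library left out, the nuclear median ran from 0.011 (without old library 4) to 0.39 (without old library 2). Within batches the nuclear medians had opposite signs, -0.11 for A and 0.71 for B, while the mitochondrial medians were 0.38 (13 of 13 above 0) and 0.29 (9 of 13).

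Cox6b2 encodes the testis isoform of the complex IV subunit that joins its monomers, and its level in liver was low. It had 3.16, 8.75, 7.77 and 3.21 normalized counts in the young, 3.38, 6.44 and 2.15 in the old and 32.1, 93.1 and 9.04 in the transgenic libraries of batch A. In batch B it had 20.003 and 31.6 in the young, 6.60 and 17.9 in the old and 31.4, 49.9 and 111 in the transgenic libraries. Every transgenic library was above every old library of its batch, while the transgenic and young libraries of batch B overlapped narrowly, at 31.4 and 31.6. Cox6b2 was 2.40 ± 0.57 (SE; limma adjusted p = 0.0331) higher in transgenic than in old libraries, with 2.59 ± 0.79 (SE) in batch A and 2.25 ± 0.69 (SE) in batch B. Against the young wild type it was 1.80 ± 0.54 (SE; limma adjusted p = 0.0551), which passed without transgenic library 3 (0.0361) or 4 (0.0412).

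The call of Cox6b2 did not hold in every fit. Its limma adjusted p was 0.160 in batch A alone, 0.352 in batch B alone, 0.052 in males alone and 0.064 without the filter on low values. It also missed the threshold when old library 1, 3, 4 or 5 or transgenic library 2, 5 or 6 was left out, at 0.0609, 0.102, 0.0701, 0.0616, 0.061, 0.0552 and 0.0715. The widely expressed partner, Cox6b1, had 4415, 6326, 5469 and 5700 in the young, 6372, 8114 and 3636 in the old and 5356, 4468 and 6512 in the transgenic libraries of batch A. In batch B, Cox6b1 had 23893 and 19548, 5909 and 9486, and 8530, 11452 and 13842. So even in the library with the highest Cox6b2 share that isoform was a small part of the pair.

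**Figure D3:**
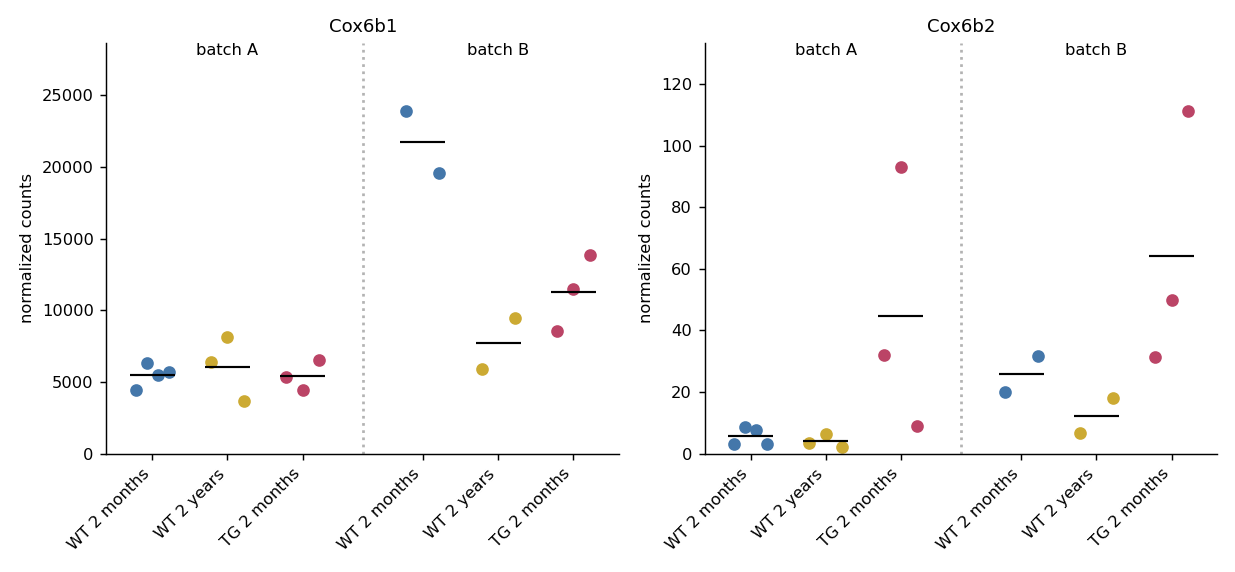
Normalized counts (y axes start at 0) of Cox6b1, left, and Cox6b2, right, in each library by group and batch; horizontal bars are means. Cox6b2 is higher in the transgenic libraries of each batch than in the old ones, from 9.04 to 111 against 2.15 to 17.9.

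The promoters of this isoform pair are shown because the single called member and its partner can be compared there. They run from 250 bases before to 50 bases after the start, from RefSeq on GRCm38.p6, both on the minus strand, and capitals mark the ETS motif CCGGAAG read on either strand. Cox6b1 lies at chr7:30626065-30626364 and Cox6b2 at chr7:4753045-4753344.
Cox6b1 promoter: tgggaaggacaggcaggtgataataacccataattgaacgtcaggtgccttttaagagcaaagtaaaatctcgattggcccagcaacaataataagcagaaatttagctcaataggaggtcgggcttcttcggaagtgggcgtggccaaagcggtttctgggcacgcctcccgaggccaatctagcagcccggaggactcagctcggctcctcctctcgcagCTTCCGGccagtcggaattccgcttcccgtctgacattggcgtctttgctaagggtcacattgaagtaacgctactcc
Cox6b2 promoter: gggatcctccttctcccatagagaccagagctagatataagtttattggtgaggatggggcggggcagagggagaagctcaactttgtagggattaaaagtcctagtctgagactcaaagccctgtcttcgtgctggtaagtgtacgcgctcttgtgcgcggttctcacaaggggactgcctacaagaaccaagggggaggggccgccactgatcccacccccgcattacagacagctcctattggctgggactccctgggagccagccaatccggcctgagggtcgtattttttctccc
The Cox6b1 window holds the motif CCGGAAG and the Cox6b2 window holds none of the motifs searched.

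Motifs of NRF1, GABP and YY1, factors known to bind promoters of respiratory chain genes, were searched on both strands in the 76 of 92 nuclear members with a promoter entry. The NRF1 core motif GCATGCGC was in 15.79% of members and 3.93% of all protein-coding promoters. The ETS motif CCGGAAG, which GABP binds, was in 22.37% and 12.94%, and the YY1 motif AAGATGGC in 14.47% and 3.57%. Among genes that passed the filter the shares were 5.74%, 19.08% and 5.09%. CCGGAAG ends in the letters AAG that begin AAGATGGC, and AAGATGGC ends in the letters GC that begin GCATGCGC, so matches of different motifs can share bases and their shares are not independent. A match describes letters in a window of 300 bases.

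The miR-29 seed match TGGTGCT occurred in the annotated 3′ UTR of 3 of 88 nuclear members, or 3.41%, against 16.78% of all genes tested. Members' UTRs were shorter, with a median of 289 bases against 1325. The matches are shown in capitals because these are the only members that carry the letters.
Atp5g1 first match: catgccagtccTGGTGCTggagtctactg
Atp5g1 second match: ggtaatgatgtTGGTGCTttgtcactttc
Ndufb8 match: gacactgcatgTGGTGCTcagacattcag
Sdhc match: tgctttgtttgTGGTGCTaggggtcaaag
Their transgene differences were 0.03 ± 0.31 (SE) for Atp5g1, an ATP synthase c subunit gene, -0.27 ± 0.31 (SE) for Ndufb8 of complex I and -0.11 ± 0.20 (SE) for Sdhc, a complex II anchor, with limma adjusted p values of 0.973, 0.690 and 0.801. None differed beyond the spread between libraries.

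The batch itself was the term under which most members were called. With group and sex held in the fit, 65 of 101 members were higher in batch B, against 21.4% of all genes, and 7 were lower, against 21.2%. By genome, 61 of 88 nuclear members were higher and none lower, while 4 of 13 mitochondrial members were higher and 7 lower. The nuclear median was 0.97 and the mitochondrial median -1.25, against -0.04 over all genes. By complex, 31 of 36 complex I subunits were higher, 4 of 7 assembly factors, 2 of 4 complex II genes, 5 of 8 complex III genes, 9 of 16 complex IV genes and 10 of 15 complex V genes. Kit, site and the animals of each batch cannot be told apart in this design.

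The largest nuclear batch differences included core enzymes as well as small subunits. Ndufa10, a complex I subunit, had counts of 1842 to 3670 in batch A and 10364 to 18098 in batch B, without overlap, a difference of 2.46 ± 0.19 (SE; limma adjusted p = 9.1e-08). Ndufv1, which holds the NADH site, was 2.48 ± 0.35 (SE) higher and Ndufb8 2.71 ± 0.31 (SE), with limma adjusted p values of 7.4e-05 and 1.2e-05. Cox4i1, whose counts spanned 6878 to 13199 (A) and 22812 to 82196 (B), was 2.49 ± 0.30 (SE; limma adjusted p = 1.7e-05) higher. Its gene span overlaps that of Gm20388 by 5986 bases on the same strand and that of Emc8 by 352 bases on the opposite strand. Whether exons are shared was not examined, and the counts of Cox4i1 may hold reads of these genes or lack its own.

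Nuclear members are short messages, and length moved with the batch difference. Their median transcript length was 684 bases against 1545 over all genes, and 63 of 88 were under 818 bases, the lower quartile of all genes. Over all genes tested, the median batch difference was 0.34 in genes below the lower quartile of length and -0.49 in genes above the upper one. The median age-by-batch interaction was -0.36 and 0.40 in the same classes. With each library's trend over length removed, the nuclear batch median was 0.61 and the age-by-batch median -0.91.

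The mitochondrial members called higher in batch B, mt-Co2, mt-Co3, mt-Atp6 and mt-Nd3, all have an identical or near-identical annotated copy of their whole coding sequence on chromosome 1. The copies lie side by side: Gm28438 (mt-Nd3) at chr1:24612775-24613119, Gm28437 (mt-Co3) at chr1:24613189-24613971, Gm10925 (mt-Atp6) at chr1:24613974-24614651 and Gm28661 (mt-Co2) at chr1:24614885-24615565. In GRCm38 all are annotated as unprocessed pseudogenes. In batch A most of the summed counts were in the copies, and in batch B a larger share was in the mitochondrial gene. Of the sum, mt-Co2 held 1.2% to 5.0% in batch A and 99.9% to 100% in batch B. For mt-Nd3 the shares were 3.7% to 11.8% and 63.2% to 94.8%, for mt-Co3 3.2% to 8.6% and 34.4% to 70.9%, and for mt-Atp6 6.4% to 8.9% and 21.6% to 66.9%.

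mt-Co2, which encodes the copper-binding subunit of complex IV that takes electrons from cytochrome c, shows this most. Its own counts in batch A were 3856, 16327, 17149 and 13600 in the young, 8595, 26648 and 7300 in the old and 10851, 20401 and 20356 in the transgenic libraries. In batch B they were 320014 and 259639, 150453 and 218874, and 232603, 353525 and 253475. Gm28661 ran from 246848 to 501350 in batch A, and in 3 of the 7 libraries of batch B it was at 0. The 2 rows thus exchange places between batches, although no base of the coding sequence differs.

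**Figure D4:**
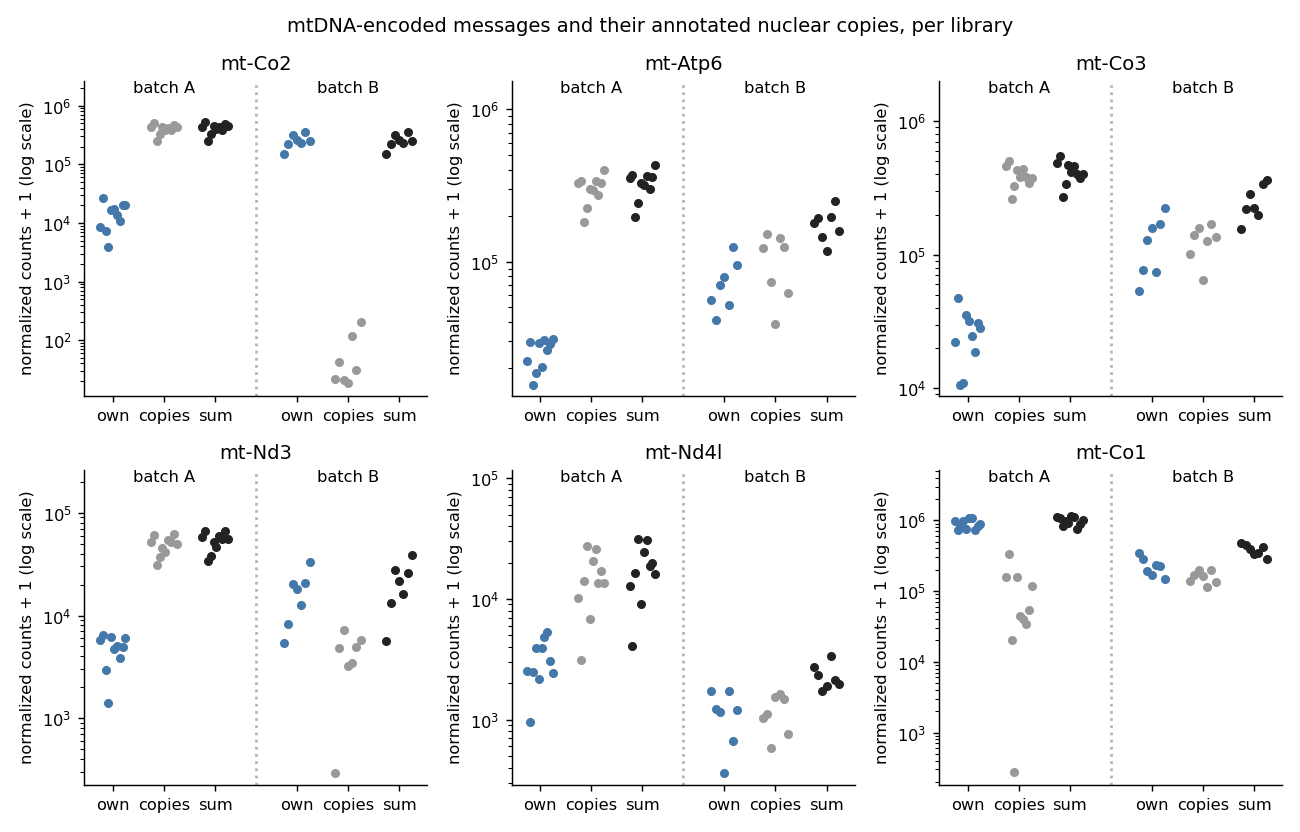
Normalized counts + 1 (log axes) per library for 6 mitochondrial genes: the gene's own row, its annotated nuclear copies, and their sum, with batch A to the left and batch B to the right of the dotted line. For mt-Co2 the own row is at most 26648 in batch A and at least 150453 in batch B, while the sums of both batches overlap.

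With copies summed to their gene, the sign of all 4 differences turned. The batch difference of mt-Co2 was 4.63 ± 0.36 (SE; limma adjusted p = 1.1e-07) on its own and -0.57 ± 0.27 (SE; limma adjusted p = 0.0954) with its copies. mt-Co3 went from 2.63 ± 0.37 to -0.56 ± 0.27 (SE; limma adjusted p = 0.112) and mt-Atp6 from 1.62 ± 0.24 to -0.71 ± 0.24 (SE; limma adjusted p = 0.0275). mt-Nd3 went from 2.12 ± 0.37 to -1.34 ± 0.32 (SE; limma adjusted p = 0.00341). mt-Nd4l, a complex I subunit that also has such a copy, went from -1.64 to -2.93, and mt-Co1, whose copy Gm29216 matches 480 of its bases, from -1.91 to -1.20.

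Most members without an abundant annotated copy were lower in batch B on their own. mt-Nd4 was at -1.88 ± 0.25 (SE), mt-Nd2 at -1.78 ± 0.24, mt-Nd1 at -1.52 ± 0.23, mt-Nd5 at -1.46 ± 0.24 and mt-Cytb at -1.25 ± 0.25, all called by limma with adjusted p values of 4.0e-05, 5.2e-05, 0.000159, 0.000294 and 0.00123. Exceptions were mt-Nd6, encoded on the opposite strand and overlapping mt-Nd5 by 14 bases, at -0.00 ± 0.26 (SE; limma adjusted p = 0.998), and mt-Atp8, at 0.16 ± 0.23 (SE; limma adjusted p = 0.599). So 2 of 13 mitochondrial members did not pass in either direction. Copies outside the annotation were not searched, for mt-Atp8 or any other member.

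**Figure D5:**
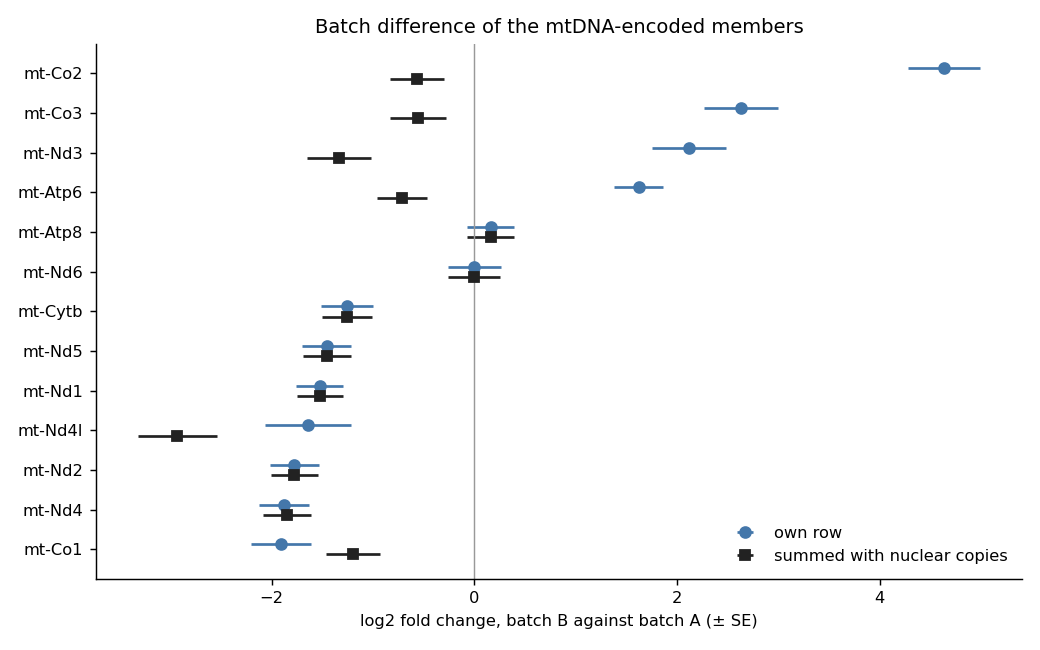
Batch B against batch A log2 difference (points, with SE as bars) of the 13 mitochondrial genes, as their own row (blue circles) and summed with their nuclear copies (black squares). mt-Co2, mt-Co3, mt-Atp6 and mt-Nd3 lie above 0 on their own and below 0 when summed.

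Genes of the pathway outside the name rule were described from lists. For age, none was called in any list. The medians were -0.15 for 5 electron carrier and complex III genes, -0.19 for 36 assembly factors of the chain, -0.12 for 21 regulators of mitochondrial genes, 0.04 for 14 citrate cycle enzymes, -0.15 for 8 mitochondrial chaperones and proteases, -0.34 for 77 mitochondrial ribosomal protein genes and -0.52 for the 2 mitochondrial rRNAs. Atpif1, the inhibitor of ATP synthase, was at -0.45 ± 0.44 (SE; limma adjusted p = 0.748) and Cycs, cytochrome c, at -0.51 ± 0.25 (SE; limma adjusted p = 0.578).

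For the transgene, 1 of 21 regulators rose and 1 fell, and of 14 citrate cycle enzymes 1 rose and 1 fell, counts that stand beside 6.71% of all genes called and show nothing particular to these lists. Ppargc1a, a coactivator that promotes mitochondrial biogenesis and gluconeogenesis, rose by 1.48 ± 0.41 (SE; limma adjusted p = 0.0394), and its relative Ppargc1b fell by 1.34 ± 0.33 (SE; limma adjusted p = 0.0212). Among citrate cycle enzymes, Idh3a, a subunit of isocitrate dehydrogenase, rose by 0.77 ± 0.17 (SE; limma adjusted p = 0.0101) and Cs, citrate synthase, fell by 0.75 ± 0.21 (SE; limma adjusted p = 0.0414). Tfam, which packages and transcribes mitochondrial DNA, was at -0.51 ± 0.15 (SE; limma adjusted p = 0.0526). The mitochondrial ribosome had a median of -0.24 with 67 of 77 below 0, near that of the nuclear members, and the cytosolic ribosome one of 0.09. Against the old wild type, where 2.55% of all genes were called, Ppargc1a rose by 2.09 ± 0.43 (SE; limma adjusted p = 0.0161), while Tfam fell by 0.69 ± 0.16 (SE; limma adjusted p = 0.0283) and Acad9, a complex I assembly factor, fell by 1.21 ± 0.28 (SE; limma adjusted p = 0.0269).

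The batch term also reached these lists. In batch B, 63 of 80 cytosolic and 51 of 77 mitochondrial ribosomal protein genes and both mitochondrial rRNAs were higher, against 21.4% of all genes. Their medians were 1.22, 0.86 and 2.35. Of the 14 citrate cycle enzymes 3 were higher and 4 lower, with a median of 0.12. These counts stand beside 21.4% and 21.2% of all genes and show nothing particular to this list. Cycs was 2.09 ± 0.24 (SE) higher in batch B and Etfdh, which passes electrons from fat oxidation to the chain, was at -0.78 ± 0.23 (SE), with limma adjusted p values of 1.1e-05 and 0.0129.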

How the data were processed

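Libraries of liver poly(A) RNA were grouped by their labels (genotype, age, batch, sex). The submitters' processing notes name the authors' tools as Salmon 0.6.0, STAR 2.5.3a and DESeq2, and the build as mm10. What each tool did, which annotation was used and how strand was counted is not given in the sources used here. A matrix deposited by the authors holds signal, DESeq2 normalized counts by its name. Only 55.8% to 67.8% of a library's low values lay within 0.1 of a whole read, so reads were not recovered, no count model was used and no counting intervals are given. Per the file headers, the authors' comparison tables hold raw and adjusted p-value columns, a score (the test statistic) and log2 fold changes with standard errors, corrected for batch and sex by their names.

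Each comparison was fitted over the 14588 genes with a mean of at least 10 by limma 3.58.1 in R 4.3.3 (eBayes with trend) on log2(value + 1), with group, batch and sex as terms and all 17 libraries sharing 1 estimate of the spread. P-values are two-sided and Benjamini-Hochberg adjusted over all genes. Interactions added group by batch, and each batch was also fitted alone. The fit was tested on simulated data. Coordinates, UTRs and exon lengths are from GENCODE M21 (GRCm38). Copies are annotated genes matching at least 30% of a member's coding sequence at 95% identity by blastn 2.17.0. Other scripts ran in Python 3.11.15.

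The members and the 21 gene lists (12 of them cell markers) were chosen with earlier results of these data known, and no test was made over a list. Named were, for each comparison, called members (at most 12 by smallest p), the member with the smallest p where a complex had under 3 calls, all mitochondrial members, the 3 highest per length in a complex and tissue isoform pairs; Ndufb10, Sdha, Cox6b1 and Cox6b2 by library, the seed-match carriers and the promoter pair were chosen after their values were seen. Alternatives were other pseudocounts, filters, scalings, covariates and weights, a length trend, single batches, males, each library left out, the authors' tables and, chosen after seeing the data, copies summed and the young libraries of batch B left out.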

Additional observations from a re-analysis of the deposited data

Results flagged for a closer look

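In groups of 4 to 10 libraries, the highest or lowest library of a named member or summed share was compared with the rest by Dixon's criterion at 95%. Of 90 member and group combinations, 2 met it, and chance alone gives about 5% of such groups.

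Cox6b2, the testis isoform of a complex IV subunit, was at 17.9 normalized counts in old library 5 of batch B, against 6.60 in the next old library. Sdha, the catalytic subunit of complex II, was at 24444 in transgenic library 4 of batch B, against 12386 in the next transgenic library. Both libraries belong to batch B.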

How the results depend on the processing

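In both age and transgene comparisons the values below changed with the setting, and the cause was not tested. For old against young, limma called no member under any alternative run, where at most 60 of all genes were called (array weights). No member passed in the authors' deposited table either, against 1.77% of all genes. The nuclear median of -0.45 was 0.0565 in batch A alone, -1.30 in batch B alone, -0.97 in males alone, -0.15 with array weights and -0.15 without the young libraries of batch B, and ran from -0.68 to -0.26 with 1 library left out. The mitochondrial median of -0.13 was 0.21 in batch B alone. For the transgene, 1 member (Cox6b2) was called with a pseudocount of 10, both rescalings to equal totals (all genes, or mitochondrial and Mup genes excluded), the length trend removed, the replicate block or array weights, 7 members in the authors' deposited table and 0 to 1 with 1 library left out. The nuclear median was -0.62 in batch B alone and 0.11 without the young libraries of batch B. For transgenic against old, 0 members were called with no filter on low values, batch A alone, batch B alone or males alone. Those fits called 45 (batch B alone) to 296 (no filter) of all genes. With 1 library left out, 0 to 1 members were called, against 161 to 525 of all genes. A mean of at least 50 also gave 0, but Cox6b2 lies under that filter and was not tested there. The nuclear median was -0.11 in batch A alone, 0.71 in batch B alone and 0.63 in males alone.

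For batch, 41 members were called without the young libraries of batch B, 35 higher and 6 lower. In that fit 3740 of all genes tested were called. The nuclear batch median was 0.61 with the length trend removed. With copies summed, mt-Co2, mt-Co3, mt-Atp6 and mt-Nd3 turned to -0.57, -0.56, -0.71 and -1.34, which the summing itself brings about. For age by batch, array weights called 61 members, against 18.4% of all genes. Leaving out 1 library called 0 to 4, against 0 to 237 of all genes. The nuclear median of -1.36 was -0.87 and -0.92 with the rescalings (all genes, and mitochondrial and Mup genes excluded), -0.91 with the length trend removed, -0.88 with the replicate block and -0.80 in males alone, and ran from -1.75 to -1.09 with 1 library left out. The mitochondrial median of 0.47 was 0.96 and 0.91 with the rescalings, 0.77 with the length trend removed and 0.16 in males alone. For transgene by batch, array weights called 3 members, against 7.66% of all genes. The array weights of both interaction fits did not converge, so their 2 counts of members are not reliable.

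Rescaling to equal totals moved the median of all genes to 0.13 for age, 0.13 for the transgene, -0.15 for batch and 0.50 for age by batch, so members should be read against those shifts. Replicate numbers were not treated as pairs in the main fit. Deviations of same-numbered libraries had a correlation above 0.1 in 7 of 16 pairs, from -0.316 to 0.384. Libraries with different numbers were not compared in this way, so these values cannot show whether the numbers pair the libraries. With the replicate block, 2 members (Ndufa10 and mt-Co2) were called for batch, among 46 of all genes tested. Most replicate numbers occurred in a single batch, so the block took up much of the batch term. The low count therefore cannot show whether the batch differences of members hold. The copies and the omission of the young libraries of batch B were chosen after seeing the data. Leaving out young libraries with the highest nuclear-member shares itself raises the nuclear age and transgene medians. Depth is unknown, so members with values near 0, such as Cox6b2, carry a counting error that cannot be given.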
